A study of Mus musculus with 622 samples.

Results

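Ucn3 RNA was set against all other RNAs in single insulin cells of the mouse pancreatic islet. The study sequenced 622 cells from the islets of wild-type C57BL/6 mice, each captured and amplified in its own chamber of a Fluidigm C1 chip. All cells carry the same labels, with no animal, age, chip or treatment named, so they form 1 group and 1 sample, and no replicate error, p-value or standard error exists for any comparison among them. Insulin cells were the 352 of these with 1000 or more genes at 1 RPKM. They also drew at least 99% of their hormone RNA (Ins1, Ins2, Gcg, Sst and Ppy) from the 2 insulin genes and held under 100 RPKM of the macrophage gene Tyrobp. RPKM is the number of reads on a gene, scaled to the gene's length and the cell's mapped reads. Among these 352 insulin cells, 82 had Ucn3 at 700 RPKM or more (Ucn3-high) and 98 had 180 RPKM or less (Ucn3-low), and the 172 between them (intermediate) entered neither side.

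Ucn3 encodes urocortin 3, a peptide of the corticotropin-releasing factor family. Mouse beta cells store it with insulin and release both together, and it acts on CRHR2 receptors of neighbouring delta cells, whose somatostatin then restrains insulin release. Ucn3 RNA appears late in mouse beta cell development, and it is lost early when beta cells fail, so it is widely used as a marker of mature beta cells. Other features of the mature mouse beta cell are the glucose transporter GLUT2, the KATP channel that couples glucose metabolism to membrane voltage, and the machinery that folds, cleaves and packs proinsulin.

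Ucn3 itself chose the cells, so its levels are a description. In the 352 cells it ran over 0.879 to 2651 RPKM with a median of 370 RPKM, and 1 cell lay under 1 RPKM. The median was 909 RPKM in Ucn3-high cells, 387 RPKM in intermediate cells and 76.7 RPKM in Ucn3-low cells. The values formed a continuum with no gap at either threshold. The lowest Ucn3-high cell had 705 RPKM and the next cell below it 694 RPKM, while the highest Ucn3-low cell had 180.0 RPKM and the next cell above it 180.1 RPKM. Over all columns, Ins1 averaged 38336 RPKM in Ucn3-high, 41590 RPKM in intermediate and 37768 RPKM in Ucn3-low cells, and Ins2 averaged 349255, 344352 and 353994 RPKM in the same order. As a share of a cell's RPKM, however, the insulin genes had medians of 42.4% in Ucn3-high, 39.6% in intermediate and 33.4% in Ucn3-low cells of the full-precision columns described below, and 54.0%, 55.1% and 54.2% in the rounded ones.

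The promoters of Ucn3 and of 3 maturity genes with higher means in Ucn3-high cells are shown because beta cell transcription factors of the homeodomain class (PDX1, NKX6-1, ISL1) bind sites with a TAAT core. Each is the RefSeq sequence on GRCm38.p6 over 250 bases before and 50 bases after the annotated start, 5′ to 3′ on the gene's strand, with TAAT and its reverse complement ATTA in capitals.
Ucn3, chr13:3945300-3945599, minus strand: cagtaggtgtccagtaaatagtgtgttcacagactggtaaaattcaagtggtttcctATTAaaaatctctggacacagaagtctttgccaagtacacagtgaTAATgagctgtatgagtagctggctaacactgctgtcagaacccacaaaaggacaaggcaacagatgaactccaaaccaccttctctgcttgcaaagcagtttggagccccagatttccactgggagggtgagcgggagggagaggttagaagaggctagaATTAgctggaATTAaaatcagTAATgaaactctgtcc
Slc2a2, chr3:28697653-28697952, plus strand: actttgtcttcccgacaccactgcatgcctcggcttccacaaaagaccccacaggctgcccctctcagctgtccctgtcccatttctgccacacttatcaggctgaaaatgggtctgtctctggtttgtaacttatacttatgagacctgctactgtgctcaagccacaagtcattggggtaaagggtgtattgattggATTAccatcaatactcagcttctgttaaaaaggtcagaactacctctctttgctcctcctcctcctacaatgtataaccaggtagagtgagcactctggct
G6pc2, chr2:69210823-69211122, plus strand: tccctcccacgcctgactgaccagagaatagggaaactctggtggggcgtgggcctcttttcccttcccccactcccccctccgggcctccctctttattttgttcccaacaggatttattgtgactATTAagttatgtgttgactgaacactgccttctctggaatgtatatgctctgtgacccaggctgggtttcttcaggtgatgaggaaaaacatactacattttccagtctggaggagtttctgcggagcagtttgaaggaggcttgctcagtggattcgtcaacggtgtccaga
Ero1b, chr13:12565633-12565932, plus strand: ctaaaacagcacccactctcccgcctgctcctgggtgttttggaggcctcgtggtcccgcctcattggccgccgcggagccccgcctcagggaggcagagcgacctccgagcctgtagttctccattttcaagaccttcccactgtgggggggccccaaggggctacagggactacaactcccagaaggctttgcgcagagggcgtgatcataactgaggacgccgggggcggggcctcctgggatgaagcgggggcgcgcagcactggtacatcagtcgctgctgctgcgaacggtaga
The letters TAAT, on either strand, had 5 matches in the Ucn3 window, 1 each in the Slc2a2 and G6pc2 windows and 0 in the Ero1b window, which also held 0 matches of the other letters searched. They stood in 56.3% of 22756 mouse promoters of the same length, in 5 of the 11 promoters given for the 12 genes named below as higher in Ucn3-high cells, and in 5 of the 9 given for those named as lower. The E-box CANNTG stood in 71.1% of all promoters, in 8 of 11 and in 6 of 9. The MAF core TGCTGA stood in 18.7%, in 1 of 11 and in 1 of 9, and TATAAA in 13.8%, in 1 of 11 and in 0 of 9. These are matches of letters and not measured binding.

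The table's columns came in 2 number formats, 359 at full precision and 263 rounded to 4 decimals, which the labels do not explain. Each ratio was therefore computed in each set as well as together. Ucn3-high cells numbered 47 in the full-precision set and 35 in the rounded set, against 44 and 54 Ucn3-low cells. Within the full-precision columns the median depth was 821863 reads in Ucn3-high and 843498 in Ucn3-low cells, with 5454 and 5848 genes at 1 RPKM. Within the rounded columns it was 1773415 and 1706861 reads, with 4150 and 3871 genes. Over both sets, 80 of 82 Ucn3-high and 79 of 98 Ucn3-low cells held at least 3000 such genes. Cells with over 25% of their RPKM in the 13 mitochondrially encoded protein genes made up 6 of 82 Ucn3-high, 16 of 172 intermediate and 15 of 98 Ucn3-low cells. The highest such share was 34.8% in a Ucn3-high and 85.8% in a Ucn3-low cell. Cells that also held stellate or glial markers at a summed 100 RPKM or more, or Pyy at 1000 RPKM or more, numbered 0 Ucn3-high, 6 intermediate and 6 Ucn3-low. These classes were picked after their levels had been seen, and cells with other markers were not counted. The highest summed level of 9 stellate markers was 8.77 RPKM among Ucn3-high and 9058 RPKM among Ucn3-low cells, that of the PP cell markers 1093 and 31531 RPKM, and that of the ductal markers 1359 and 6453 RPKM. The order was the opposite for macrophage or immune markers, at most 1070 RPKM in a Ucn3-high and 300 RPKM in a Ucn3-low cell, for endothelial markers, 248 and 14.5 RPKM, and for erythroid ones, 87.4 and 27.7 RPKM. The alpha cell factor Irx1 was at 0 in every Ucn3-high cell and at most 0.298 RPKM in a Ucn3-low cell. Genes named below as called whose call ends without the 12 counted cells are given with and without them. Below, cells that hold other markers, or markers of other types, are these counted cells alone. Leaving them out removed 0 Ucn3-high and 6 Ucn3-low cells, and kept the Ucn3-high cells highest in immune, endothelial and ductal markers.

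**Figure D1:**
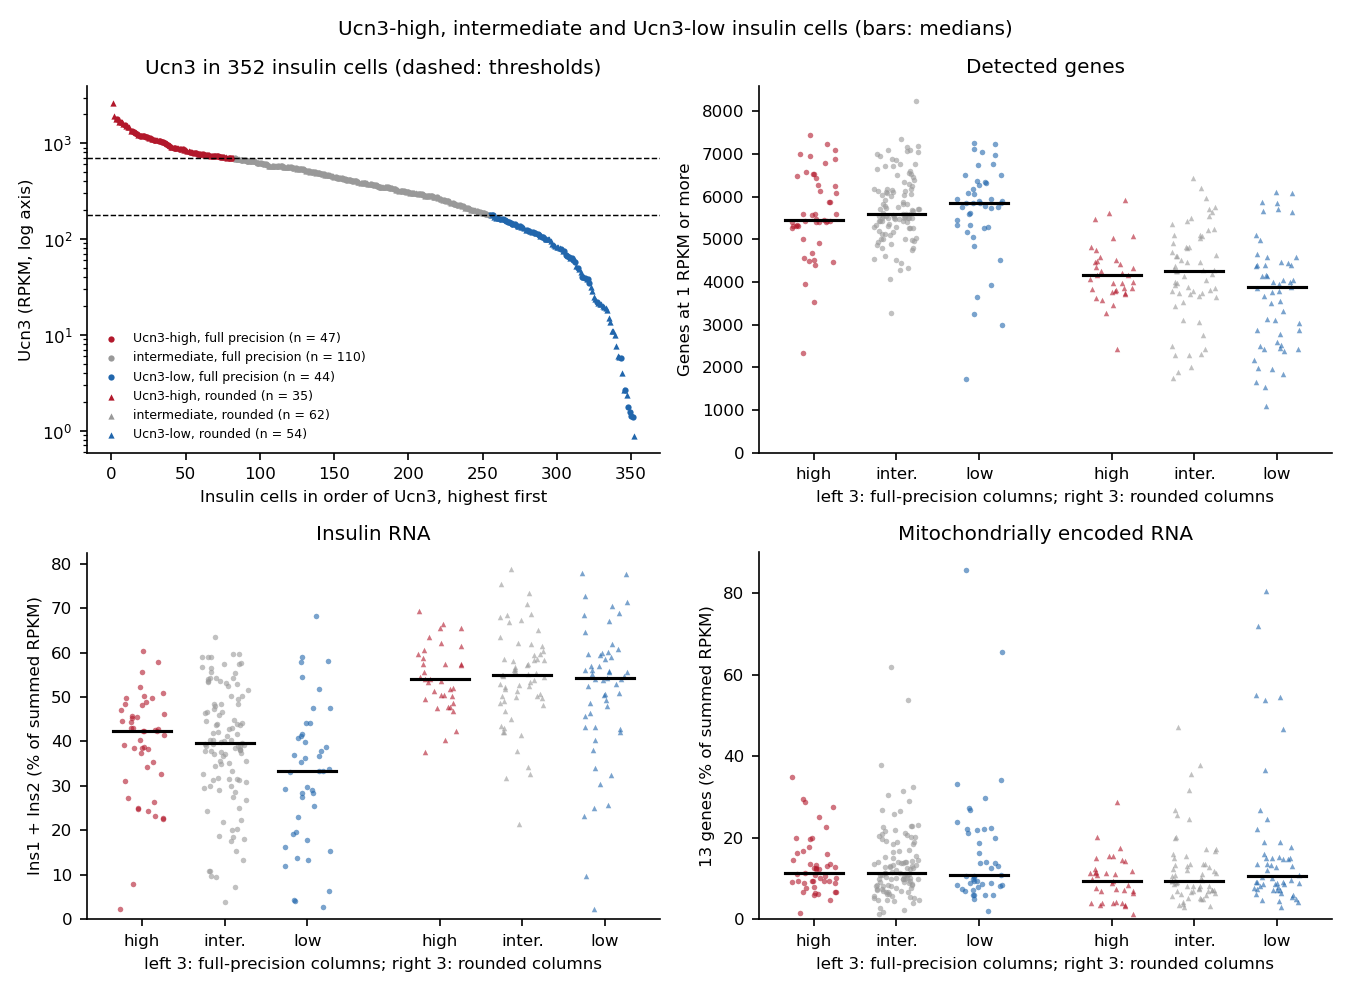
Ucn3 in each of 352 insulin cells (RPKM, log axis, highest first, dashed lines at 700 and 180 RPKM), and per cell the genes at 1 RPKM or more, the percentage of RPKM in Ins1 and Ins2, and the percentage in 13 mitochondrially encoded genes. Points are cells and bars medians, by class and column set. Ucn3 descends without a gap, and the highest mitochondrial shares, up to 85.8%, lie in Ucn3-low cells.

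Over all genes, 7155 other than Ucn3 had a mean of at least 5 RPKM on either side and were compared by the log2 ratio of the Ucn3-high mean plus 1 RPKM to the Ucn3-low mean plus 1 RPKM. A gene was called when it was at least 1.5-fold higher, or at least 1.5-fold lower, in both column sets. By that rule 445 genes (6.22%) were higher and 374 (5.23%) were lower in Ucn3-high cells. Within a set the share past 1.5-fold was larger, 1104 (15.4%) higher and 1283 (17.9%) lower in the full-precision set, and 2157 (30.1%) higher and 1545 (21.6%) lower in the rounded set. The sets gave the same sign for 3807 of the 7155 genes (53.2%), and for 315 of 541 genes (58.2%) with a mean of at least 100 RPKM. Across all 7155 genes, which share the same cells and are not independent, the ratios in the 2 sets had a Pearson r of 0.11 and a Spearman rho of 0.10. Single calls below are to be read against these shares. A gene under 5 RPKM on 1 side was compared only through its other side. The sign of its ratio over both sets together was thus fixed by the filter. Of the called genes named below, this holds for Thrb, Nqo1, Hspa1b, P2ry1 and Ccna2 (higher). It also holds for Trib3, Klf4, Zyx, Cd9, Tmsb10 and Vim (lower), and for Slc2a1, Tcf7l2 and Ffar1, which were not called.

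Slc2a2 had the largest ratio of the maturity genes compared. It encodes GLUT2, the main glucose transporter of the mouse beta cell, and lies on GRCm38 at chr3:28697903-28728361. Its RNA averaged 225 RPKM in Ucn3-high, 163 RPKM in intermediate and 78.3 RPKM in Ucn3-low cells, a log2 ratio of 1.51 between the outer classes (1.38 in the full-precision set and 1.60 in the rounded set). Per cell it ran over 0 to 869 RPKM with a median of 175 RPKM in Ucn3-high cells, 0 to 1711 RPKM with a median of 107 RPKM in intermediate cells, and 0 to 506 RPKM with a median of 33.3 RPKM in Ucn3-low cells. The classes overlapped, since the upper quartile of Ucn3-low cells, 111 RPKM, lay above the lower quartile of Ucn3-high cells, 52.0 RPKM. The difference was also one of cells nearly without the transcript. Slc2a2 lay under 10 RPKM in 10 of 82 Ucn3-high cells (12.2%, exact Clopper-Pearson 95% interval 6.01% to 21.3%), 35 of 172 intermediate cells and 34 of 98 Ucn3-low cells (34.7%, 25.4% to 45.0%). With each cell thinned to 250000 reads, at least 1 Slc2a2 read was left in 95.1% (87.8% to 98.6%) of 81 Ucn3-high and 84.5% (75.8% to 91.1%) of 97 Ucn3-low cells. These intervals cover counting error only. Slc2a2 passed 1.5-fold in both column sets in all 13 alternative settings that could be run on both, with log2 ratios of 1.22 to 2.36. The non-coding gene 1700112D23Rik overlaps it, and since the library kit does not mark strand, reads of the overlap cannot be told apart.

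Most of the maturity genes pointed the same way, by less. Of 18 genes listed as marks of the mature mouse beta cell, 16 reached the level for comparison, and 13 of the 16 had a ratio above 0, against 4005 of all 7155 genes (56.0%). Their median log2 ratio was 0.60 (0.56 in the full-precision set and 0.46 in the rounded set), against 0.09 over all genes. The 1.5-fold call was met by 2 of the 16, Slc2a2 and Ero1b, and by none in the lower direction. With the median of each class in place of its mean, 16 of 16 were above 0. The share of all genes above 0 is not given for that setting, so this count has no baseline. Other lists rose there too, TCA cycle and shuttle genes to a median of 0.84 from 0.26 and cytoskeleton and junction genes to 0.46 from -0.12. Of 77 ribosomal protein genes, 28 were above 0.

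G6pc2, the islet glucose-6-phosphatase, was detected in every cell of each class. It ran over 7.23 to 4332 RPKM with a median of 1231 RPKM in Ucn3-high cells, 27.5 to 3384 RPKM with a median of 952 RPKM in intermediate cells, and 4.08 to 3028 RPKM with a median of 633 RPKM in Ucn3-low cells. The ranges overlapped almost wholly, and the log2 ratio of the means was 0.70 (0.56 and 0.82 by set), with the full-precision value short of 1.5-fold. Ero1b, the endoplasmic reticulum oxidase that helps proinsulin form its disulfide bonds, averaged 284 RPKM in Ucn3-high, 233 RPKM in intermediate and 174 RPKM in Ucn3-low cells, a log2 ratio of 0.70 (0.82 and 0.62).

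Trpm5, a calcium-activated cation channel that adds to the glucose response of beta cells, averaged 27.0, 19.8 and 13.4 RPKM in Ucn3-high, intermediate and Ucn3-low cells. It reached 1 RPKM in 53 of 82 Ucn3-high cells (64.6%, interval 53.3% to 74.9%) and 43 of 98 Ucn3-low cells (43.9%, 33.9% to 54.3%). Its log2 ratio of 0.96 was uneven between the sets, at 1.47 and 0.41. The receptor for GLP-1, Glp1r, was likewise uneven, at 20.2, 12.4 and 8.61 RPKM, with log2 ratios of 0.41 and 2.10 by set.

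The zinc transporter of the insulin granule, Slc30a8, had a log2 ratio of 0.60, the pancreatic master regulator Pdx1 0.75, pyruvate carboxylase (Pcx) 0.89 and the granule-tethering protein Sytl4 0.61. Each of these was above 0 in both sets. Iapp, which encodes the co-secreted peptide amylin, averaged 67105 RPKM in Ucn3-high, 63014 RPKM in intermediate and 55334 RPKM in Ucn3-low cells, a log2 ratio of 0.28. The homeodomain factor Nkx6-1 had a log2 ratio of 0.27, with 0.75 and -0.15 by set. Members below 0 included the vesicle protein gene Syt4 at -0.12 and the cytochrome c oxidase subunit gene Cox6a2 at -0.35. Mafa, a factor closely tied to beta cell maturity, was almost unread in this table, at 0.02 RPKM in Ucn3-high and 0.01 RPKM in Ucn3-low cells, and could not be compared, nor could Esrrg.

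**Figure D2:**
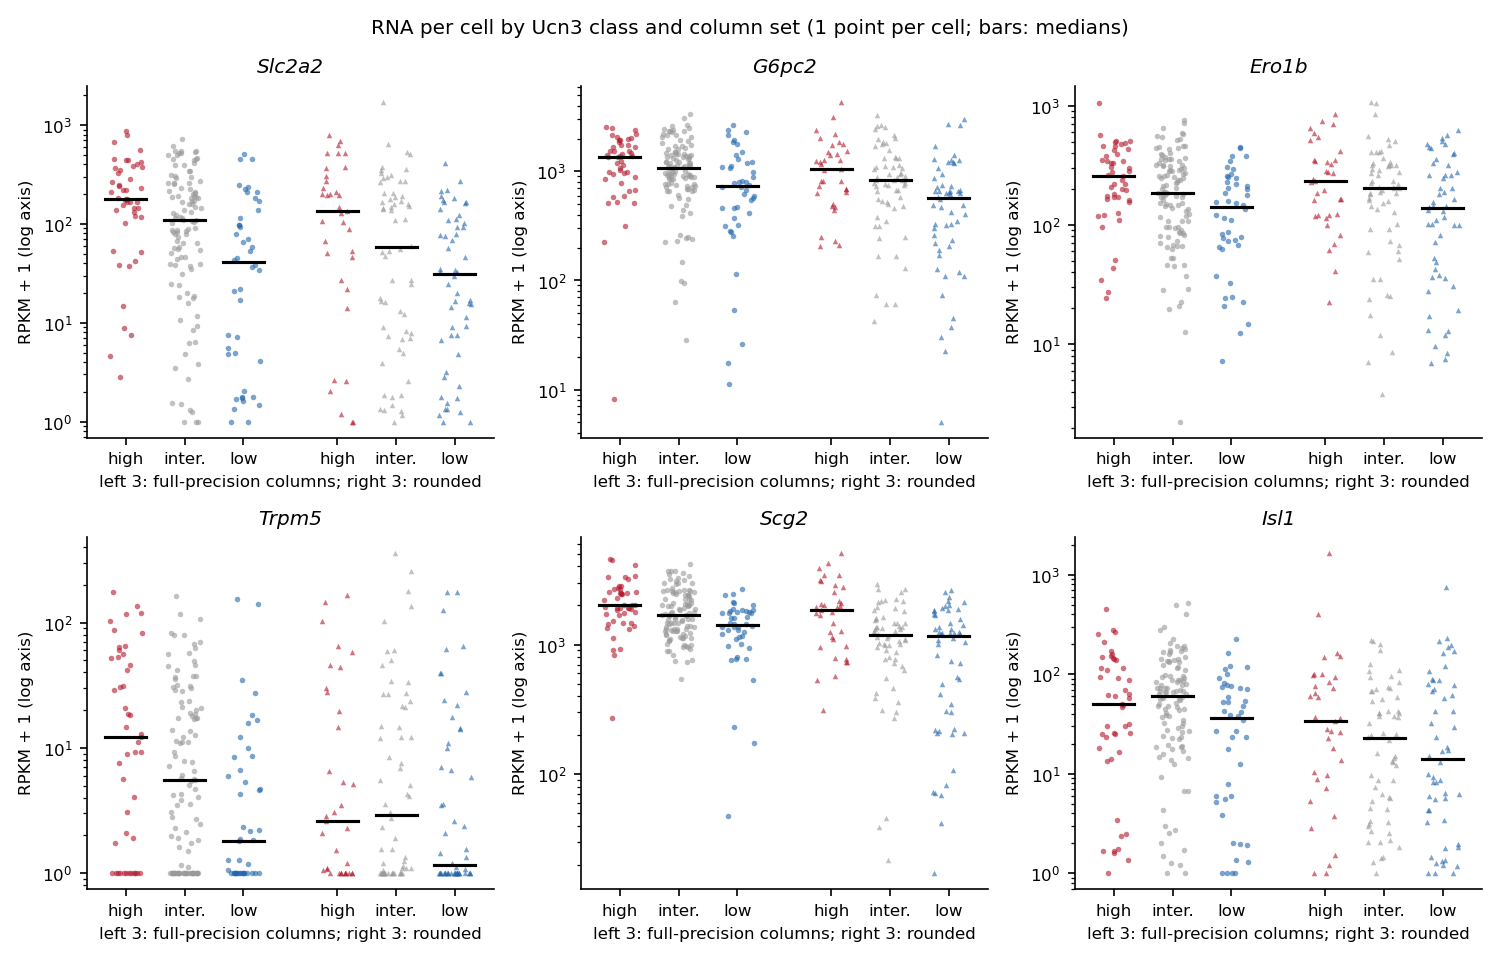
RPKM + 1 per cell (log axis) of Slc2a2, G6pc2, Ero1b, Trpm5, Scg2 and Isl1, by Ucn3 class within the full-precision (left) and rounded (right) columns. Points are cells and bars medians. For Slc2a2 the medians descend from class to class in each column set, and cells near 0 are most frequent among Ucn3-low cells, 34 of 98 under 10 RPKM.

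Within the Ucn3-low class the other maturity genes did not all go with Slc2a2. The 34 Ucn3-low cells with Slc2a2 under 10 RPKM averaged 451 RPKM of G6pc2, against 950 RPKM in the other 64, and 127 RPKM of Ero1b, against 200 RPKM. For Trpm5 the means were 14.4 and 12.9 RPKM. These cells were picked by a measured level, so the values are descriptive.

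Of the remaining genes that couple glucose to membrane voltage, Abcc8, the sulfonylurea receptor subunit of the KATP channel, averaged 86.3 RPKM in Ucn3-high, 63.0 RPKM in intermediate and 49.0 RPKM in Ucn3-low cells. Its medians were 79.3, 54.2 and 32.8 RPKM, and its log2 ratio was 0.80 (0.58 and 0.99 by set). Kcnj11, the pore subunit of the same channel, had 17.6, 14.1 and 10.9 RPKM and a log2 ratio of 0.64 (0.44 and 0.90). The calcium channel gene Cacna1d had a log2 ratio of 0.72 (0.66 and 0.43). Over the glucose entry and KATP list, 8 of 13 compared genes were above 0, with a median of 0.67, and Slc2a2 alone was called. Slc2a1, which encodes the high-affinity glucose transporter GLUT1, had 3.08 RPKM in Ucn3-high and 5.26 RPKM in Ucn3-low cells and log2 ratios of -1.13 and 0.38 by set.

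Of 20 compared genes for granule cargo and prohormone processing, 17 were above 0, 15 of them in both sets, beside 56.0% of all genes above 0. The median log2 ratio was 0.31 (0.19 and 0.35 by set), beside 0.09 over all genes. Scg2, which encodes the granule protein secretogranin II, was the only one of the 20 called. It was read in every cell, over 271 to 5037 RPKM with a median of 1945 RPKM in Ucn3-high cells, 20.9 to 4196 RPKM with a median of 1459 RPKM in intermediate cells, and 16.3 to 2659 RPKM with a median of 1250 RPKM in Ucn3-low cells. Its log2 ratio was 0.78 (0.63 and 0.89), and the upper part of the Ucn3-high range, above 2659 RPKM, held no Ucn3-low cell. Rab3a, a GTPase of granule docking, had a log2 ratio of 0.86 (0.47 and 1.29), the calcium sensor Scgn 0.50, and the proprotein convertases Pcsk2 and Pcsk1 0.41 and 0.29. Chromogranin B (Chgb) stood at -0.04.

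Among 15 exocytosis genes, 11 were above 0 with a median of 0.36, and Nsf and Vamp3 were called higher. Nsf, the ATPase that takes apart used SNARE complexes, averaged 28.0 RPKM in Ucn3-high, 28.2 RPKM in intermediate and 12.5 RPKM in Ucn3-low cells, a log2 ratio of 1.10. The vesicle SNARE gene Vamp3 averaged 32.3, 27.5 and 18.6 RPKM, a log2 ratio of 0.76. Its share of cells at 1 RPKM was much the same, 51 of 82 Ucn3-high and 60 of 98 Ucn3-low cells.

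Of 17 islet transcription factors compared, 15 were above 0 together and 9 in both sets, with a median of 0.31, and Isl1, Tshz1 and Thrb were called higher. Isl1, a LIM homeodomain factor that beta cells need to mature and to secrete insulin, had a median of 41.3 RPKM in Ucn3-high, 43.1 RPKM in intermediate and 22.3 RPKM in Ucn3-low cells. Its means were 90.2, 67.3 and 52.1 RPKM and its log2 ratio was 0.78 (0.84 and 0.81). Without the cells over 25% mitochondrial RNA the ratio was 0.22, and the Ucn3-high cell with the most Isl1, 1633 RPKM, is one of those left out, at 28.7% mitochondrial RNA. The zinc-finger homeobox factor Tshz1 had a median of 34.3 RPKM in Ucn3-high, 27.9 RPKM in intermediate and 19.3 RPKM in Ucn3-low cells, with a log2 ratio of 0.67. Thrb, a thyroid hormone receptor, reached 1 RPKM in few cells, 19 of 82 Ucn3-high and 11 of 98 Ucn3-low, and averaged 7.20 and 2.31 RPKM. Tcf7l2, a factor of the Wnt pathway, was below 0, at -1.07 (-0.38 and -1.71).

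In mitochondrial metabolism, 21 of 28 genes of the TCA cycle and its shuttles were above 0, beside 56.0% of all genes. Their median was 0.26 (0.08 and 0.60 by set), beside 0.09 over all genes. With classes matched on detected genes their median was -0.02, beside -0.06 over all genes. Pdhb and Sucla2 were called higher. Pdhb, a subunit of pyruvate dehydrogenase, averaged 94.5 RPKM in Ucn3-high, 82.6 RPKM in intermediate and 42.7 RPKM in Ucn3-low cells, a log2 ratio of 1.13 (0.73 and 1.59). Sucla2, a subunit of succinyl-CoA ligase, averaged 43.9, 38.8 and 24.4 RPKM, a log2 ratio of 0.82. Of 39 nuclear genes of the respiratory chain and ATP synthase, 17 were above 0 with a median of -0.03, and Atp5f1d was called lower at -0.56. Of 14 glycolysis genes none was called, and the median was 0.18.

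RNAs of the mitochondrial genome went the other way. All 13 protein genes had ratios below 0 in both column sets, with intermediate cells between the sides for each, and the median was -0.73 (-0.40 and -0.89). mt-Nd3, a subunit of complex I, was called lower, at 1364 RPKM in Ucn3-high, 1720 RPKM in intermediate and 2960 RPKM in Ucn3-low cells. The difference moved with the cells richest in mitochondrial RNA. In cells at or under 25% the median ratio was -0.16 with 9 of 13 genes below 0, and with classes matched on detected genes it was -0.06. With the median of each class in place of the mean it was -0.09, with 8 of 13 below 0. The 77 cytosolic ribosomal protein genes compared had a median of -0.21, 57 of them below 0 and 40 in both sets, with none called, but the median was 0.21 where the mean was taken over log2 values.

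Stress genes showed no shared direction. The 29 chaperone and unfolded protein response genes had a median log2 ratio of 0.03, with -0.28 and 0.40 by set, and Ero1b alone was called. The main endoplasmic reticulum chaperone, Hspa5 (BiP), averaged 640 RPKM in Ucn3-high, 655 RPKM in intermediate and 717 RPKM in Ucn3-low cells. None of 29 genes for translocation and N-glycosylation was called, with a median of 0.07. In the integrated stress response, with a median of -0.08 over 17 genes, the serine synthesis enzyme gene Phgdh was called higher (1.11) and the pseudokinase gene Trib3 lower (-1.36, at 4.34 RPKM in Ucn3-high and 12.7 RPKM in Ucn3-low cells). Among 19 genes of oxidative defence, with a median of -0.10, the quinone reductase gene Nqo1 was higher (1.36) and the mitochondrial peroxiredoxin gene Prdx3 lower (-0.78). In cells at or under 25% mitochondrial RNA the ratio of Prdx3 was -0.30. Phgdh, Trib3 and Nqo1 had a ratio of 0 between class medians. They reached 1 RPKM in 21, 14 and 14 of 82 Ucn3-high cells and in 16, 21 and 12 of 98 Ucn3-low cells.

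Immediate early and heat shock genes had a median of 0.21 over 21 genes. The heat shock genes Dnajb1 (31.7 RPKM in Ucn3-high, 11.7 RPKM in intermediate and 13.9 RPKM in Ucn3-low cells) and Hspa1b (9.30, 4.23 and 2.31 RPKM) were called higher, and both had a ratio of 0 between class medians. The early response genes Ier3 (7.09, 12.2 and 24.1 RPKM) and Klf4 (2.26, 3.77 and 5.09 RPKM) were called lower. Without the cells that hold markers of other types, the log2 ratio of Ier3 was -0.58 in place of -1.63, and that of Klf4 -0.57 in place of -0.90, both short of 1.5-fold. Both had a ratio of 0 between class medians.

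**Figure D3:**
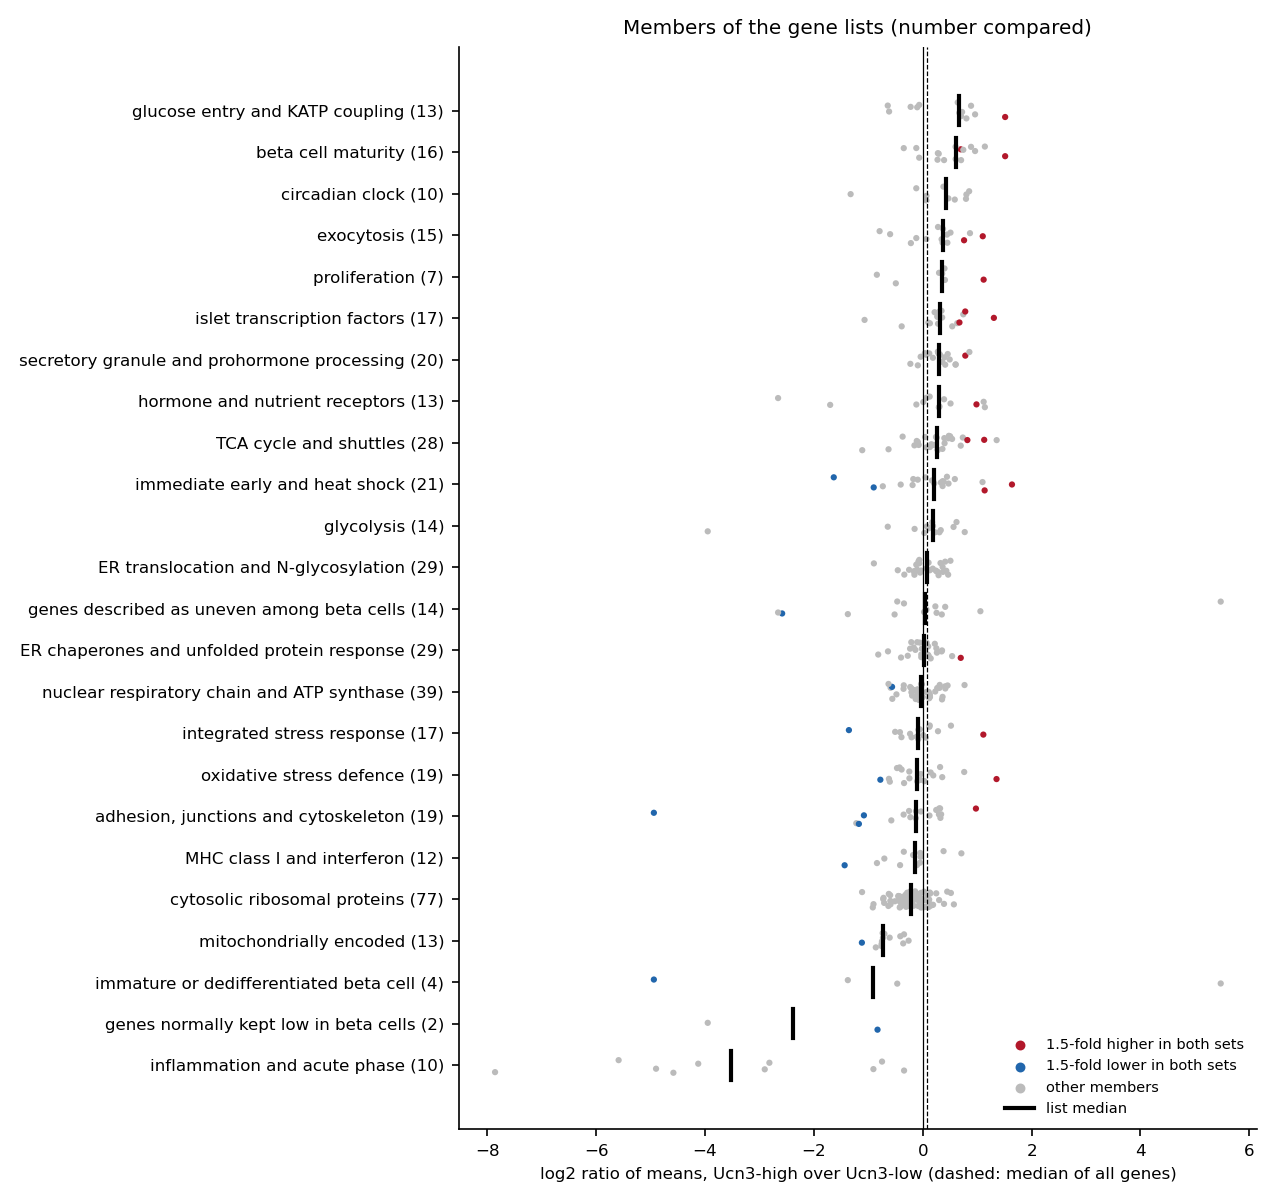
Log2 ratio of class means, Ucn3-high over Ucn3-low, for each compared member of the gene lists (number compared in brackets), ordered by list median. Red and blue points were at least 1.5-fold higher or lower in both column sets, black bars are list medians, and the dashed line is the median of all genes, 0.09. The glucose entry and maturity lists have the highest medians, 0.67 and 0.60, with few members called.

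By the rule for named genes (at least 20 RPKM on average on the higher side, with 50% or more of its cells at 1 RPKM, ranked by the smaller ratio of the 2 sets), the 12 highest genes were Svip, Slc2a2, Dnaja4, Gpsm1, Gemin7, Nbdy, Fxyd6, Mboat2, Ndfip2, Rars2, Cog7 and Gnpda1. Their log2 ratios were 1.06 to 1.79, and for each the intermediate mean lay between the outer classes, an order that is favoured where genes are picked for a wide gap between those classes. It held for 363 of the 445 genes called higher (81.6%) and for 46.2% of all genes, and nothing is read from that difference, which the same choice favours.

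Svip, whose product binds the VCP ATPase and inhibits degradation of endoplasmic reticulum proteins, averaged 30.3 RPKM in Ucn3-high, 25.1 RPKM in intermediate and 8.01 RPKM in Ucn3-low cells. Its medians were only 3.42, 3.39 and 1.94 RPKM, so the mean rested on a minority of cells, 26 of 82 Ucn3-high and 17 of 98 Ucn3-low cells at 10 RPKM or more. Gpsm1, a modulator of G protein signalling, had medians of 21.6, 5.11 and 2.66 RPKM and reached 10 RPKM in 51 of 82 Ucn3-high, 72 of 172 intermediate and 33 of 98 Ucn3-low cells. Its log2 ratio was 1.33 (1.35 and 1.31 by set). Fxyd6, a regulator of the sodium pump, had medians of 37.9, 10.5 and 2.63 RPKM and a log2 ratio of 1.39 (1.52 and 1.12). Fxyd6 was also on the list of PP cell markers, while the PP hormone gene Ppy averaged 55.1, 62.0 and 49.6 RPKM.

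Dnaja4, a co-chaperone of HSP70, averaged 35.8, 20.7 and 12.1 RPKM, a log2 ratio of 1.49. Slc2a2, Dnaja4, Gpsm1 and Fxyd6 were the members of the 12 that passed 1.5-fold in both column sets in all 13 settings. Nbdy, a microprotein of mRNA decapping bodies, averaged 63.7, 35.7 and 24.0 RPKM, and Mboat2, a lysophospholipid acyltransferase, 27.3, 14.8 and 11.0 RPKM. Gemin7, a part of the SMN complex, averaged 51.5, 23.5 and 22.1 RPKM, and Cog7, a subunit of a Golgi tethering complex, 39.6, 30.2 and 18.4 RPKM. The ubiquitin ligase adaptor Ndfip2, the mitochondrial arginyl-tRNA synthetase Rars2 and the glucosamine-6-phosphate deaminase Gnpda1 had log2 ratios of 1.35, 1.39 and 1.22. Of the 12 genes, 6 overlap another annotated gene.

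The 12 lowest were Mphosph6, Pyy, Abcf1, Gmppb, Rn7sk, Sypl, Oaz2, Map2k2, Dnpep, Bud31, Eif3i and Tubb5, with log2 ratios of -3.34 to -1.12 and the intermediate mean between the sides in all 12. That order, favoured here by the same choice of genes, held for 283 of the 374 genes called lower (75.7%), and nothing is read from it. Mphosph6, a cofactor of the RNA exosome, averaged 15.9 RPKM in Ucn3-high, 33.8 RPKM in intermediate and 48.9 RPKM in Ucn3-low cells. Abcf1, an ATP-binding cassette protein of translation initiation, averaged 6.22, 15.3 and 23.6 RPKM, with no Ucn3-high cell above 40.8 RPKM and the highest Ucn3-low cell at 511 RPKM. The mannose-activating enzyme Gmppb, the antizyme Oaz2 and the kinase Map2k2 had log2 ratios of -1.30, -1.53 and -1.61. Rn7sk, a small nuclear RNA, the vesicle protein gene Sypl and the aminopeptidase gene Dnpep had -1.42, -1.21 and -1.14.

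Several of these means were set by few cells. Bud31, a splicing factor, had 1 Ucn3-low cell at 6215 RPKM, and its log2 ratio was -1.56 between means and 0.71 between medians. The tubulin gene Tubb5 had -1.17 between means and 0.18 between medians. Eif3i, a translation initiation factor, had 1 Ucn3-low cell at 5270 RPKM, and its ratio was -1.12 with that cell and -0.58 without the highest cell of each side. Pyy had 1 Ucn3-low cell at 31492 RPKM, in the full-precision set. Its medians were 9.36, 9.68 and 10.2 RPKM, and its ratio of -3.34 became -0.47 without the highest cell of each side and 0.02 without the cells that hold other markers. In the rounded set, which lacks that cell, Pyy averaged 9.90 RPKM in Ucn3-high and 28.5 RPKM in Ucn3-low cells, a ratio of -1.44. Over the intermediate cells, which the rule did not use, the rank correlations of the 24 named genes with Ucn3 lay within -0.23 to 0.27. In the 110 full-precision and 62 rounded cells, 5 and 9 of the 12 higher genes were above 0. Of the 12 lower genes it was 9 and 7, against the direction of their calls. Slc2a2 had 0.19 and -0.04. All these values are too weak to be a finding in sparse counts.

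**Figure D4:**
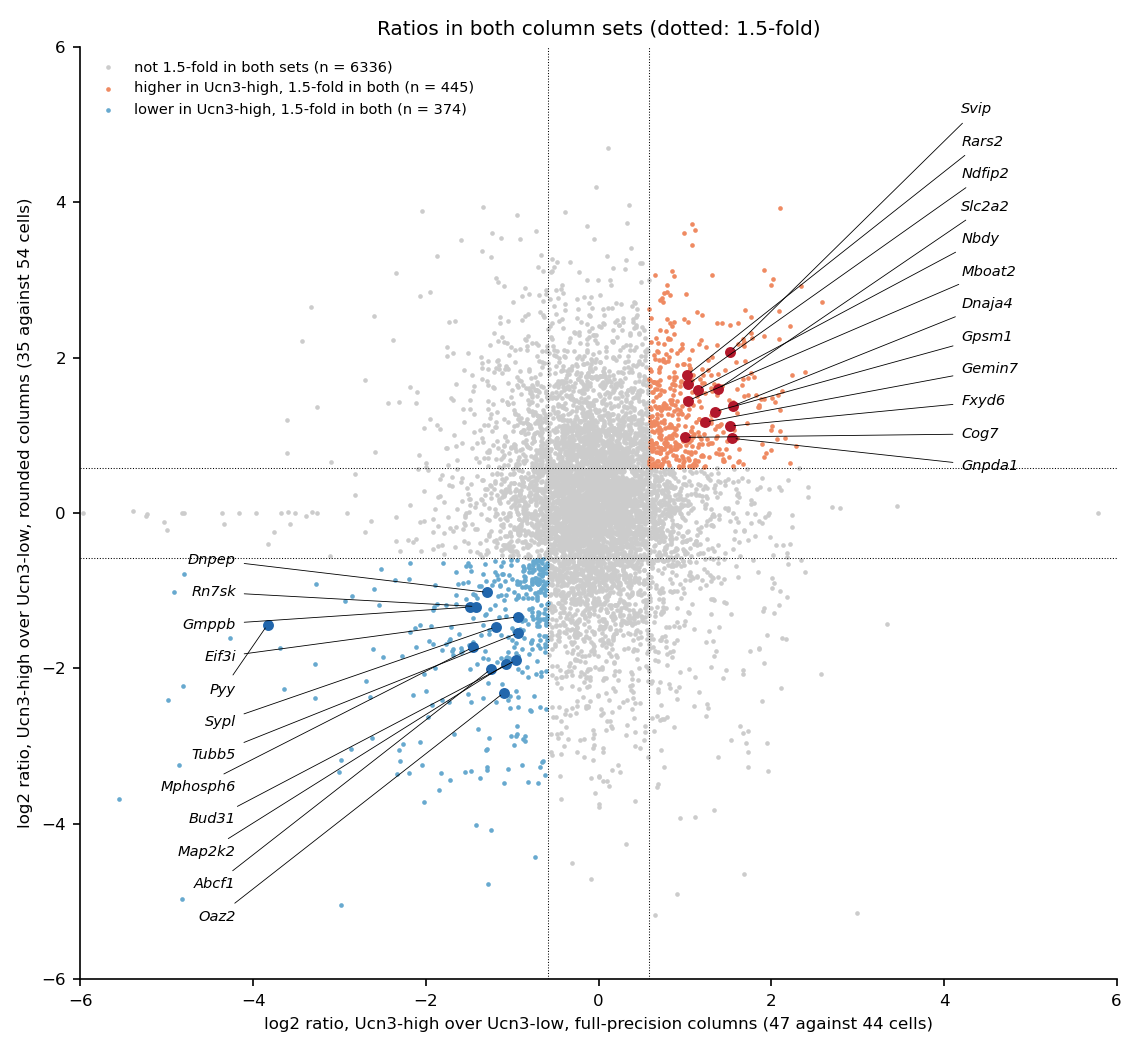
Log2 ratio, Ucn3-high over Ucn3-low, in the full-precision columns (x axis, 47 against 44 cells) and in the rounded columns (y axis, 35 against 54 cells) for 7155 genes, 1 point per gene, with dotted lines at 1.5-fold. Red and blue points passed 1.5-fold in both sets, 445 and 374 genes, and the 24 named genes are labelled, with 7 genes outside the axes. The cloud shows little common slope, as in the correlation of 0.11.

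Among genes normally kept low in beta cells, or tied to immature or dedifferentiated ones, Vim and Ldha had ratios that rested on a handful of cells. Both passed the level of 5 RPKM through the Ucn3-low side alone, so a ratio below 0 was fixed by the filter. Vim, the intermediate filament gene of mesenchymal cells, averaged 0.06 RPKM in Ucn3-high, 0.79 RPKM in intermediate and 31.5 RPKM in Ucn3-low cells, and was called lower with a log2 ratio of -4.94. It reached 1 RPKM in 1 of 82 and 9 of 98 cells, the highest at 1878, 545 and 489 RPKM, and its ratio was -0.03 without the cells that hold other markers. Ldha, the lactate dehydrogenase gene that beta cells silence, averaged 0.02, 0.50 and 14.7 RPKM, with ratios of -5.04 and -0.11 by set. It reached 1 RPKM in 1 of 82 Ucn3-high and 8 of 98 Ucn3-low cells, and its ratio was -2.19 without the cells that hold other markers. Zyx, a focal adhesion gene, was called lower at -0.83, and stood at -0.31 without those cells.

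Of 14 immature or dedifferentiated beta cell genes only Vim, Rbp4, Cd81 and Npy reached the level for comparison, with a median of -0.92 that became 0.22 without the cells that hold other markers. Vim and Rbp4 (3.13 RPKM in Ucn3-high and 9.73 RPKM in Ucn3-low cells) passed the filter through the Ucn3-low side alone. Npy passed it through the Ucn3-high side alone. The filter thus fixed the signs of these genes, and nothing is read from the median. Cd81, a tetraspanin gene, was broadly read, at 1 RPKM in 47 of 82 Ucn3-high and 49 of 98 Ucn3-low cells, and averaged 39.3 and 54.7 RPKM, with log2 ratios of -0.85 and -0.02 by set. Aldh1a3, an enzyme gene raised in failing beta cells, averaged 0.03 RPKM in Ucn3-high and 3.19 RPKM in Ucn3-low cells, with the difference in the full-precision columns alone. Neurog3, the factor of endocrine progenitors, averaged 0.04 and 0.92 RPKM. Npy, a peptide of immature beta cells, averaged 64.5, 15.9 and 0.47 RPKM, with 1 Ucn3-high cell at 5015 RPKM.

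Acute phase genes were high in a few Ucn3-low cells. Lcn2, an iron-binding protein of inflammation, averaged 126 RPKM in Ucn3-high, 17.2 RPKM in intermediate and 946 RPKM in Ucn3-low cells. It exceeded 1000 RPKM in 1, 1 and 3 cells, the Ucn3-high one at 9862 RPKM and the highest 2 Ucn3-low cells at 53750 and 36765 RPKM. Saa3, an acute phase apolipoprotein gene, reached 26735 RPKM in 1 Ucn3-low cell and at most 5.85 RPKM in any Ucn3-high cell, and Saa1 reached 3013 RPKM in 1 Ucn3-low cell. The 10 compared genes of this list had a median of -3.51, with -4.37 and 0.00 by set, and none was called. Members such as Saa1, which averaged 0 RPKM in Ucn3-low cells without its highest cell, passed the filter through that cell alone, so the list's median is set in part by the filter.

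**Figure D5:**
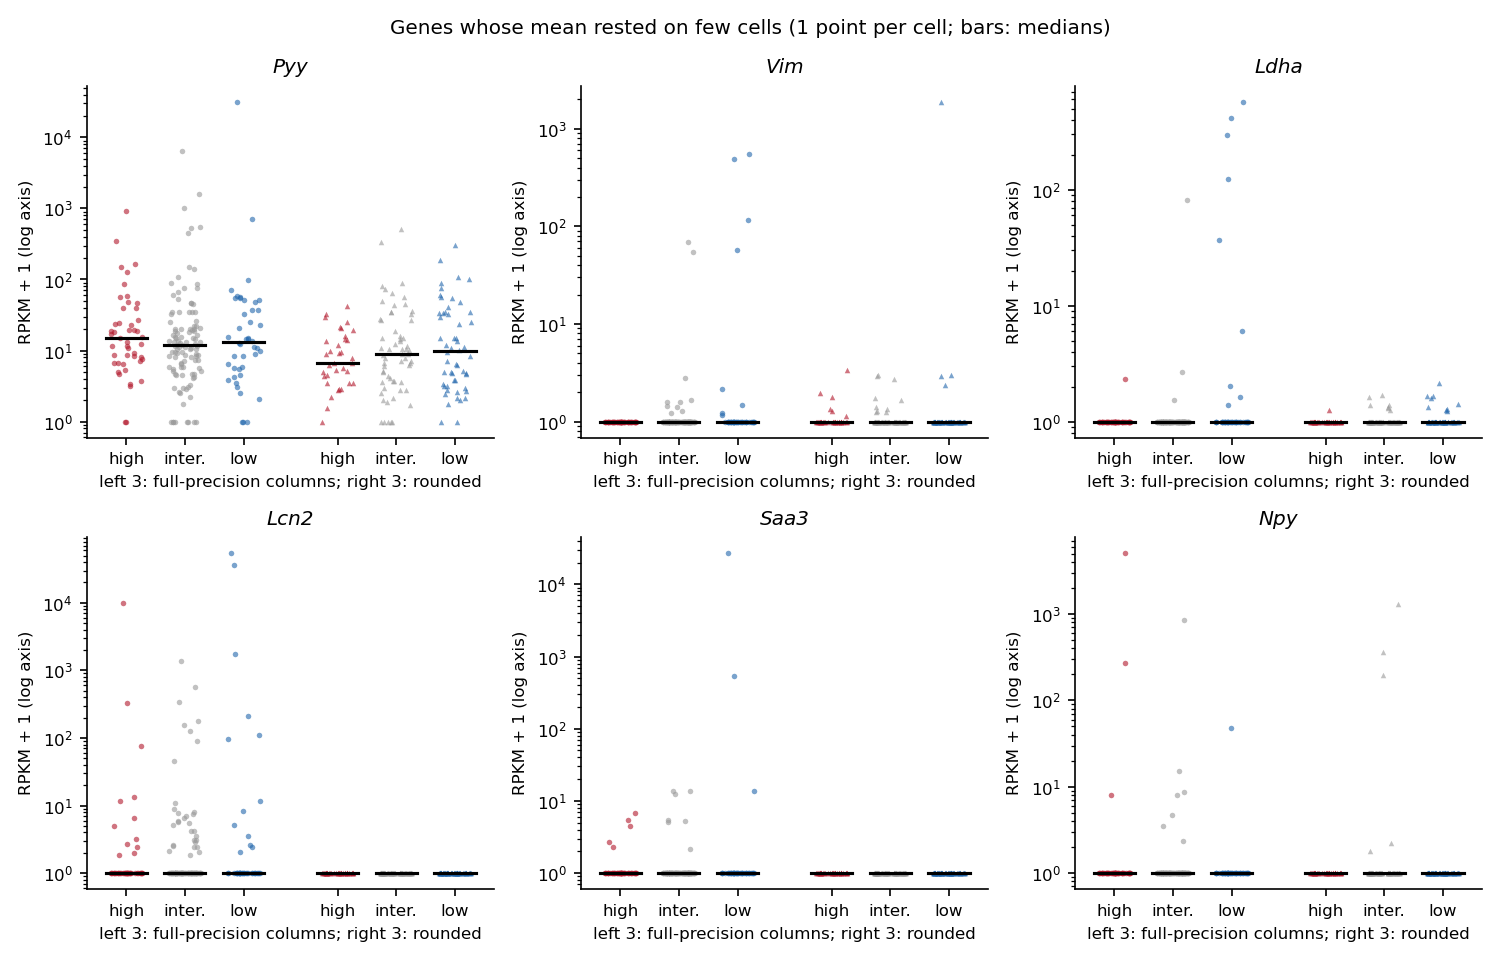
RPKM + 1 per cell (log axis) of Pyy, Vim, Ldha, Lcn2, Saa3 and Npy, by Ucn3 class within the full-precision (left) and rounded (right) columns. Points are cells and bars medians. Single points set the means, such as the Ucn3-high cell at 5015 RPKM of Npy and the Ucn3-low cells at 31492 RPKM of Pyy and 53750 RPKM of Lcn2.

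No other gene of the urocortin and CRF system reached 5 RPKM. Ucn, Ucn2, Crh and the urocortin receptor gene Crhr2 were at 0 on both sides. Crhr1, the receptor for CRH that beta cells carry, averaged 0.04 RPKM in Ucn3-high and 0.08 RPKM in Ucn3-low cells, and the binding protein gene Crhbp 0 RPKM in Ucn3-high and 1.04 RPKM in Ucn3-low cells, from 1 cell.

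The same comparison could be made in cells the rule had left out. In 32 further cells the insulin genes made up 90% to under 99% of the hormone sum, and 5 of these were Ucn3-high, all in full-precision columns, while 13 were Ucn3-low, 6 of them full-precision. These cells were chosen after the data had been seen. Slc2a2 was 43.4, 59.3, 135, 273 and 404 RPKM in the 5 Ucn3-high cells, against 0 to 91.1 RPKM with a median of 2.41 RPKM in the 13 Ucn3-low cells. In the full-precision columns the classes did not overlap, since the Ucn3-low cells reached at most 26.5 RPKM. Beside this difference, the insulin genes made up a median of 48.9% of RPKM in the Ucn3-high and 10.2% in the Ucn3-low cells, and the mitochondrial genes 9.59% and 16.7%. Other hormones differed too, with medians of 6342 RPKM of Gcg in Ucn3-high and 157 RPKM in Ucn3-low cells, and 8.93 and 335 RPKM of Sst. Ttr, which alpha cells also express, had medians of 901 and 156 RPKM. Whether these values had a part in the difference was not tested.

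In the same cells G6pc2 averaged 1607 RPKM in Ucn3-high and 634 RPKM in Ucn3-low, Ero1b 316 and 82.9 RPKM, Isl1 131 and 31.5 RPKM, and Scg2 2016 and 1086 RPKM. The maturity list had 13 of 16 genes above 0 with a median log2 ratio of 1.23, and the granule list 18 of 20 with 0.72. The islet transcription factors had 7 of 17 above 0 with a median of -0.41, against 15 of 17 in the main classes, and the exocytosis genes 8 of 15 with 0.01. Tshz1, called higher in the main classes, had -0.38 here, and Nkx6-1 had -0.41. The 13 mitochondrially encoded genes had 0 above 0 with a median of -1.97, and the ribosomal protein genes 5 of 77 with -0.87. All genes gave 3272 of 7155 above 0 (45.7%) with a median of -0.15. Unless stated, the values in this paragraph pool both column sets, although all 5 Ucn3-high and only 6 of 13 Ucn3-low cells were full-precision. In the full-precision columns alone, all genes had a median of -0.38 and the islet transcription factors -0.02, with 8 of 17 above 0. There the maturity list had 1.28, the granule list 0.77, exocytosis genes -0.17, mitochondrially encoded genes -1.55 and ribosomal protein genes -1.38. The calls of the main classes can be read in these cells too. Of the 445 called higher, 228 (51.2%) were above 0 here, and of the 374 called lower, 225 (60.2%) were below 0. Among the named genes the same direction was seen for 7 of the 12 higher and 9 of the 12 lower ones, and Svip, at 7.44 RPKM in Ucn3-high and 21.5 RPKM in Ucn3-low cells, ran the other way.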

How the data were processed

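The authors deposited 1 table of RPKM values for 44448 Entrez gene IDs in 622 cells. Per the labels' protocols, the SMARTer Ultra Low RNA chemistry made cDNA on the C1 chip, and Nextera XT made the libraries. The submitters' processing notes name CASAVA 1.8.2, FastQC and GRCm38 (mm10). What aligned and counted the reads, and with which annotation, is not given in the sources used here. Symbols and positions came from RefSeq on GRCm38.p6 for 39725 IDs, and promoters from its 300-base windows.

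All ratios used RPKM as deposited: log2 of the class means with a pseudocount of 1 RPKM, for genes with a mean of at least 5 RPKM on either side, in each column set and together. Ucn3 chose the cells and was not compared. Named genes were the 12 highest and 12 lowest by the smaller of both sets' ratios, with a mean of at least 20 RPKM and 1 RPKM in at least 50% of cells on the higher side. From each list, members with the largest ratios were named, and a few others were named after their values were seen. Cells are not replicates, so no p-value was computed. The members, thresholds and gene lists were chosen with earlier results of these data known, and lists are described by counts and medians beside those of all genes.

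Reads were recovered from RPKM steps for depth and for thinning to 250000 reads only. Of values under 100 reads, 99.9% were whole within 0.05 in the rounded columns. Doublets were not called. Of cells with markers of other types, only those with stellate or glial markers or high Pyy were counted. Python 3.11.15, NumPy 2.4.6, pandas 2.3.3, SciPy 1.17.1 and matplotlib 3.10.9 were used. Calculations were tested on simulated data. Alternatives changed the pseudocount, the average, the filter, the scaling, the depth, the Ucn3 thresholds and the cells admitted. Values of some single genes are not reported here.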

Additional observations from a re-analysis of the deposited data

How the results depend on the processing

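The number of genes called higher, 445, and lower, 374, moved with the settings. With a pseudocount of 10 it was 77 and 81, with the mean of log2 values 218 and 25, and with class medians 334 and 58. With no filter on low values it was 677 and 725, and with a filter of 20 RPKM 108 and 80. Ucn3 thresholds of 1000 and 100 RPKM (36 Ucn3-high and 58 Ucn3-low cells) gave 718 and 621, and thresholds of 500 and 250 RPKM gave 294 higher. The full-precision columns alone gave 1104 and 1283, and the rounded columns alone 2157 and 1545. The median of all genes, 0.09, was -0.060 with cells matched on detected genes and -0.053 in the full-precision columns. The maturity median, 0.60, was above 0 in every alternative run, at 0.45 with a pseudocount of 10, 0.80 with class medians, 0.88 with the mean of log2 values, 0.50 with no filter, 0.41 with thresholds of 500 and 250 RPKM, 0.49 with at least 3000 genes, 0.49 with matched cells and 0.46 in the rounded columns. The immature list's median, -0.92, turned to 0.23 with class medians, 0.24 with thresholds of 1000 and 100 RPKM and 0.22 without cells that hold other markers. Bud31 turned to 0.71 and Tubb5 to 0.18 with class medians, and Pyy to 0.021 without cells that hold other markers. The share of cells at 10 RPKM was 87.8% in Ucn3-high and 65.3% in Ucn3-low cells for Slc2a2, and 43.9% and 21.4% for Trpm5, against 96.3% and 81.6%, and 64.6% and 43.9%, at 1 RPKM. The difference of medians, Ucn3-high minus Ucn3-low, was -21635 reads in the full-precision and 66554 reads in the rounded columns, -393.5 detected genes in the full-precision columns, and 0.098 percentage points of mitochondrial RNA over all columns, 0.56 in the full-precision set and -1.18 in the rounded set. Except where the alternative's construction shows it, as with a filter or fewer cells, the cause was not tested. Of 459 single gene values under an alternative, 317 moved by less than the spread between cells, 139 moved by more and 3 reversed. Leaving out cells over 25% mitochondrial RNA, cells that hold other markers, and the cells with less insulin were settings chosen after seeing the data. No paired analysis was possible because all cells are 1 group with no replicate numbers. With 1 sample, no difference between animals or chips can be told apart from one between cells, and fewer cells of a kind cannot be told from less RNA per cell in the means.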

Other observations

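Genes described elsewhere as uneven among mouse beta cells did not follow Ucn3 as a group. Of 14 compared, 8 had a log2 ratio above 0, 1 of them in both column sets, and the median was 0.05. Ttr, which encodes transthyretin, averaged 658 RPKM in Ucn3-high, 519 RPKM in intermediate and 551 RPKM in Ucn3-low cells. Gad1, the enzyme gene for GABA synthesis, averaged 22.7, 22.6 and 19.2 RPKM. The tetraspanin gene Cd9 was called lower, at 3.33, 4.07 and 24.9 RPKM, and its ratio of -2.58 was -0.91 without cells that hold markers of other types.

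Receptors, clock and cell cycle genes held few calls. Of 13 receptor genes compared, the purinergic receptor gene P2ry1 was called higher, at 10.2 RPKM in Ucn3-high, 8.97 RPKM in intermediate and 4.64 RPKM in Ucn3-low cells, and was read at 1 RPKM in 35 of 82 and 21 of 98 cells. The fatty acid receptor gene Ffar1 averaged 2.58 and 10.6 RPKM in Ucn3-high and Ucn3-low cells, with log2 ratios of -0.21 and -2.10 by set. None of 10 clock genes was called, with a median of 0.43. Of 7 proliferation genes compared, the cyclin gene Ccna2 was called higher from 6 of 82 and 7 of 98 cells, and the cyclin gene Ccnd2, the more abundant cyclin D of these cells, averaged 223, 174 and 168 RPKM.

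In the MHC class I and interferon list, with a median of -0.14 over 12 genes, Ifi27 was called lower at 18.5, 38.4 and 51.6 RPKM, though its ratio between class medians was 0.11. The heavy chain gene H2-K1 averaged 166, 186 and 172 RPKM. Of 19 cytoskeleton and junction genes, with a median of -0.12, the tubulin gene Tubb2a was called higher at 50.7, 46.6 and 25.2 RPKM, and Vim, Tubb5 and the thymosin gene Tmsb10 (3.34, 3.29 and 8.18 RPKM) were called lower.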
